A study of Arabidopsis thaliana with 50 samples.

Results

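*SDC* (AT2G17690), AT3G29639 and AT1G36680 are 3 loci that are silent in wild-type Arabidopsis and expressed in *morc1* mutants. They are 3 of the 37338 genes in the count tables. They were chosen by their levels in the 4 *morc1* libraries set against the 4 *SDC:GFP* wild-type libraries: AT3G29639 and AT1G36680 rose most there, and *SDC* is the gene whose promoter drives the reporter of the screen. Values of these loci and of the genes beside them, from that contrast and from others that use either of its groups, are therefore given as a description with no test.

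RNA was measured in 50 libraries of whole 8-day-old Col-0 ecotype seedlings, each from 5 combined seedlings. The mutant groups of the main experiment are *ddc/med13* (4 libraries), *morc1/med12* (3), *morc1/med13* (4), *ddc* (4) and *morc1* in 2 sets. Set 1 holds the 4 *morc1* libraries that were the controls of *morc1/med13*, and set 2 the 3 that were the controls of *morc1/med12*. The *SDC:GFP* wild type (4) carries *SDC:GFP*, a transgene in which the *SDC* promoter drives green fluorescent protein. The *ddc/med13*, *morc1/med12* and *morc1/med13* lines were made in plants that carry it. The *morc1* and *ddc* libraries, as their controls, are taken to carry it as well, which their labels do not say. *med12* (4), *med13* (4) and Col-0 (4) carry no transgene, nor do the *med12* and Col-0 seedlings (3 libraries each) that spent 24 hours in the dark, with or without 15 minutes of light at the end. *ddc* is the *drm1/drm2/cmt3* triple mutant, *morc1* is the T-DNA allele *morc1-4*, *med12* is *cct-2* and *med13* is *gct-2*. The *med12* lesion in *morc1/med12* and the *med13* lesion in *ddc/med13* are CRISPR-CAS9 frame shifts, each a single line, and *morc1/med13* carries *gct-2* by crossing.

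MORC1 is an ATPase of the Microrchidia family that keeps methylated loci silent, and its loss releases such loci while their DNA stays largely methylated. DRM1, DRM2 and CMT3 are DNA methyltransferases that maintain methylation outside the CG context (CHG and CHH, where H is A, C or T), so that *ddc* plants lose much of it, although CMT2, another such enzyme, is intact. MED12 and MED13 are subunits of the CDK8 kinase module, a detachable part of the Mediator complex that links transcription factors to RNA polymerase II.

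*SDC* encodes an F-box protein, a substrate adaptor of ubiquitin ligases, and lies on chromosome 2 from 7682162 to 7684083 (TAIR10.1, forward strand, 3 exon blocks, 1625 exonic bases). In wild-type vegetative tissue it is silenced through methylation of tandem repeats in its promoter. In the reference sequence these repeats are 7 copies of a 32-base unit, from base 297 to base 75 before the annotated start, and each copy matches the commonest base in 87.5% to 100% of positions. They are shown because silencing of *SDC* is known to depend on their methylation. Capitals mark bases that differ from the commonest base at that position, and copy 1 is 31 bases long.
Copy 1, chr2:7681865-7681895: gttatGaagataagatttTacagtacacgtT
Copy 2, chr2:7681896-7681927: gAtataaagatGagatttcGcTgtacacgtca
Copy 3, chr2:7681928-7681959: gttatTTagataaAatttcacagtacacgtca
Copy 4, chr2:7681960-7681991: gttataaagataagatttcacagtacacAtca
Copy 5, chr2:7681992-7682023: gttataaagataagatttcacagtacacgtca
Copy 6, chr2:7682024-7682055: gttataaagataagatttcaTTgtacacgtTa
Copy 7, chr2:7682056-7682087: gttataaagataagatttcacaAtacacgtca

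Over both strands the array holds 66 cytosines, of which 14 are in CG, 19 in CHG and 33 in CHH context. The run aagataagattt, which 5 of the 7 copies contain, is found in the 300 bases before the start of 16 of 27431 protein-coding genes (0.0583%, both strands), and *SDC* is the one gene with more than 1 match there.

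The other loci hold no such array. The best tandem match in the 1500 bases before AT3G29639 was 67.2% identity at a period of 26 bases and before AT1G36680 51.6% at a period of 13 bases, against 96.9% at 32 bases before *SDC*. Neither holds the 12-base run. AT3G29639 lies on chromosome 3 from 11478633 to 11480033 (reverse strand, 2 exon blocks, 945 exonic bases) and encodes an uncharacterized protein. AT1G36680 is an annotated pseudogene on chromosome 1 from 13871080 to 13872202 (forward strand, 1 exon block). The 120 bases before each start are shown to set beside the repeats, with CG dinucleotides in capitals, 5′ to 3′ in the direction of transcription.
AT3G29639, chr3:11480034-11480153, reverse strand: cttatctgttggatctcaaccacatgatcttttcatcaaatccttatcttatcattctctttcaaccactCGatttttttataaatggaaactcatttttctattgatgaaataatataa
AT1G36680, chr1:13870960-13871079, forward strand: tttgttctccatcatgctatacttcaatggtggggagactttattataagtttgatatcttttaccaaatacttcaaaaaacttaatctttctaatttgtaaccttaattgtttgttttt

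Over both strands these stretches hold 2 and 0 cytosines in CG context, against 4 in the 120 bases before *SDC*. CHH cytosines were 29 before AT3G29639, 32 before AT1G36680 and also 32 before *SDC*. The genome also bears on which reads can be assigned. All 50-base words of the *SDC* exons are unique in the genome, as are 95.6% of those of AT1G36680 and 83.9% of those of AT3G29639, and reads are 50 bases long. The shared words of AT3G29639 lie in AT5G11430, AT3G29631 and AT3G05845, so counts of AT3G29639 from those stretches are uncertain.

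**Figure D1:**
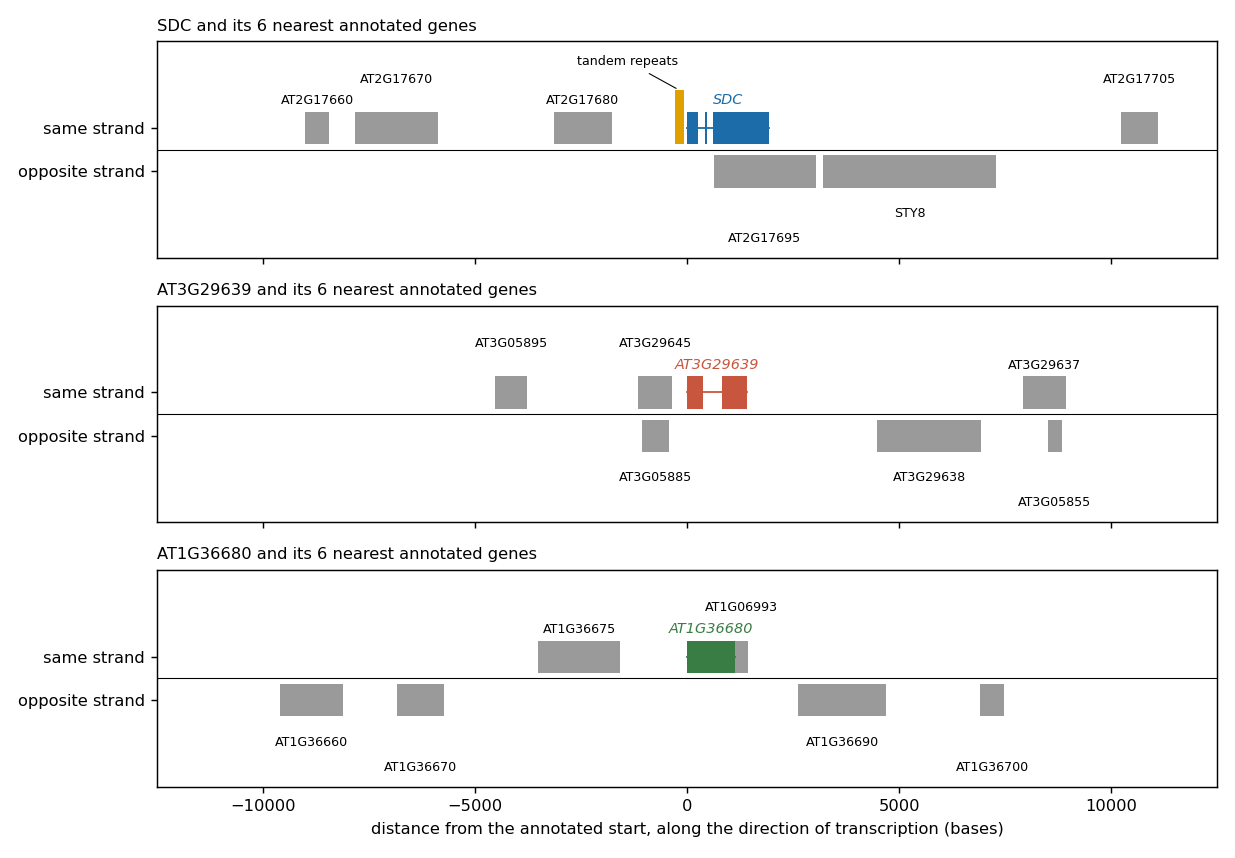
Each locus with its 3 nearest annotated genes on either side, drawn to scale as distance in bases from the annotated start along the direction of transcription (TAIR10.1). Coloured boxes are exon blocks of the locus, grey boxes are other genes by strand, and the yellow block is the *SDC* repeat array, which ends 75 bases before the start. AT2G17695 overlaps *SDC* on the opposite strand, and AT1G06993 begins just behind AT1G36680.

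Library totals ran from 2767761 to 6786822 counts, so that 3 counts in a library, the level taken as the floor, equal 0.42 to 1.17 CPM (counts scaled to library size, with TMM over all libraries). The 2 wild-type groups also differed in more than the transgene. Library totals were 3222705 to 3492942 counts in *SDC:GFP* wild type and 5696151 to 6116629 in Col-0. The summed level of 3 green-tissue markers was 563 to 616 CPM in *SDC:GFP* wild type and 222 to 237 CPM in Col-0. Duplicate removal caps the counts of abundant genes, as set out below for *SDC*, and the CPM of a capped gene falls as totals rise. Whether these markers are capped was not tested, so their sums are not read as a tissue difference. Whether the difference bears on contrasts with Col-0 was not tested. The 12 replicate pairs of the dark and light experiment differed by about as much as counting noise gives (mean chi-square per feature 0.918 to 1.098, where counting noise gives 1). The other 54 pairs ran from 1.07 to 3.41, and the lowest of them, in the *SDC:GFP* wild type (1.07 to 1.19), overlapped those of Col-0 in the light (0.971 to 1.098). No pair stood apart from the others of its group by such agreement. That comparison cannot show replicates of a common source where every pair of a group agrees, as in the dark and light groups. Each library was kept as a sample, as labelled. Nothing in the labels says that replicates came from separate cultures. The p-values measure the spread between these libraries, which in the dark and light groups was hardly more than counting noise.

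Markers of green tissue (222 to 616 CPM summed) and root (24.1 to 137 CPM) were present in every group of seedlings. Of the targeted transcripts, 4 were at lower levels where the labels say so, of which *MORC1* in *morc1* set 1 fell by less than 1.5-fold (log2 -0.57). *MED12* was at 61.8 ± 1.42 CPM in *med12*, against 165 ± 4.48 CPM in Col-0 (SD, n = 4 each). *MORC1* was at 23.9 ± 1.59 CPM in *morc1* set 1 and 26.6 ± 2.45 CPM in *morc1* set 2 (SD, n = 4 and 3), against 35.4 ± 2.59 CPM in *SDC:GFP* wild type (SD, n = 4). In *ddc*, *DRM2* was at 17.8 ± 3.56 CPM and *CMT3* at 20.8 ± 2.22 CPM, against 32.1 ± 1.46 and 77.5 ± 6.29 CPM in *SDC:GFP* wild type (SD, n = 4 each). *MED13* was not called lower where it was disrupted, at 123 ± 6.49 CPM in *med13* against 108 ± 4.12 CPM in Col-0, and at 125 ± 5.69 CPM in *ddc/med13* against 98.0 ± 10.6 CPM in *ddc*. In *morc1/med13* it was at 109 ± 4.44 CPM against 114 ± 2.18 CPM in *morc1* set 1 (SD, n = 4 each), with no call (edgeR log2 -0.07, adjusted p = 0.287), and *MED12* was not lower in *morc1/med12*, at 147 ± 4.97 CPM against 130 ± 5.74 CPM in *morc1* set 2 (SD, n = 3 each). The RNA level does not check those labels.

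In *morc1*, the description that chose the loci, *SDC* had 145, 154, 130 and 145 counts in set 1, against 4, 15, 26 and 10 in *SDC:GFP* wild type. AT3G29639 had 168, 208, 167 and 175 counts in *morc1* set 1, against 2, 1, 2 and 1 in *SDC:GFP* wild type. AT1G36680 had 30, 29, 24 and 28 counts in *morc1* set 1, against 0, 0, 1 and 0 in *SDC:GFP* wild type. None of the loci overlapped between the groups. As ratios of summed counts scaled by library size, *SDC* was 10.2-fold higher (95% counting interval 7.73 to 13.7), AT3G29639 117-fold (53.5 to 320) and AT1G36680 109-fold (19.1 to 4326). Of 19273 features tested in this contrast, 1.19% were called higher, which here and below means an adjusted p under 0.05 and more than 1.5-fold. The summed level of 4 seed and embryo markers also stood apart, at 14.3 to 110 CPM in *morc1* set 1, against 0.911 to 3.29 CPM in *SDC:GFP* wild type. *CRU1*, a seed storage protein gene and the one of the 4 that passed the filter on low counts, was called higher (log2 5.17, edgeR adjusted p = 9.47e-05). The part of this difference in the values of the 3 loci was not tested.

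The wild-type groups differed at *SDC*. It averaged 4.17 ± 2.75 CPM in *SDC:GFP* wild type, against 0.403 ± 0.279 CPM in Col-0 (SD, n = 4 each), a ratio of 10.4 by summed counts (5.27 to 23.0). AT3G29639 had 6 counts in all in *SDC:GFP* wild type and 15 in Col-0 (ratio 0.760, 0.242 to 2.07). Reads from any *SDC* sequence in the transgene would be counted on *SDC*, whether it holds any is not given in the sources used here, and the transgene and the library set cannot be told apart in this pair of groups.

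The set 2 *morc1* libraries took no part in choosing the loci. *SDC* had 114, 111 and 162 counts there, against 1, 2, 5 and 2 in Col-0. AT3G29639 had 255, 221 and 247 counts in *morc1* set 2, against 6, 5, 3 and 1 in Col-0. AT1G36680 had 43, 40 and 47 counts in *morc1* set 2, against 2, 1, 0 and 2 in Col-0. All 3 loci were well above Col-0 in every library. Each adjusted p below, unless another test is named, is from edgeR (quasi-likelihood, adjusted by Benjamini-Hochberg over all features). With all 50 libraries in one edgeR fit, the log2 fold changes were 5.97 for *SDC* (SE 0.32), 6.31 for AT3G29639 (SE 0.31) and 5.32 for AT1G36680 (SE 0.54). The loci passed the filter on low counts in that fit only through groups where they are high, so these values are a description with no test. Of all features, 7.26% were called higher in this contrast, which spans library sets and, if *morc1* carries it as taken here, the transgene. Green-tissue markers summed to 347 to 367 CPM in *morc1* set 2, against 222 to 237 CPM in Col-0, while seed and root markers overlapped, and their part was not tested. Library totals were 4479713 to 4743689 counts in *morc1* set 2 and 5696151 to 6116629 in Col-0. Whether duplicate removal caps the green-tissue markers was not tested.

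The 2 *morc1* sets did not give the same level of every locus. *SDC* was at 43.2 ± 2.06 CPM in set 1 (SD, n = 4) and 26.9 ± 5.58 CPM in set 2 (SD, n = 3), with no overlap and a ratio of 1.60 (counting interval 1.41 to 1.83). AT3G29639 was at 54.0 ± 4.81 and 50.3 ± 2.30 CPM in sets 1 and 2 (SD, n = 4 and 3), and AT1G36680 at 8.34 ± 0.649 and 9.04 ± 0.55 CPM, both with overlapping libraries. The contrast of *SDC* with the other loci therefore depends on which set stands for *morc1*, and below each double mutant is read against its own set first.

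**Figure D2:**
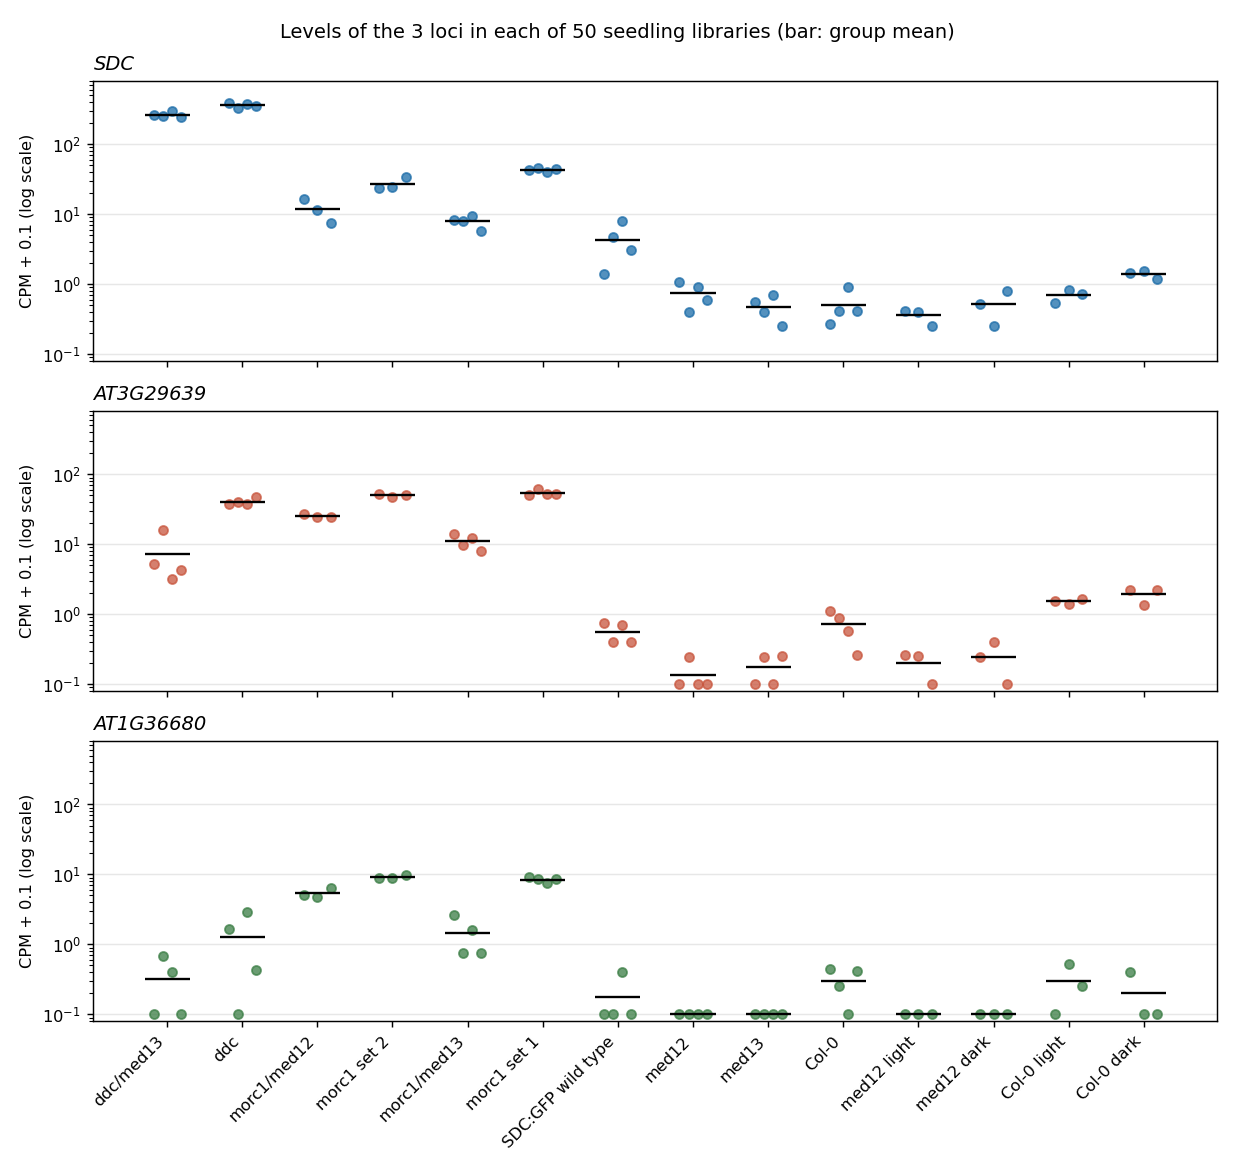
Level of *SDC*, AT3G29639 and AT1G36680 in each of the 50 libraries, as CPM + 0.1 on a log scale, with points for libraries and bars for group means. *SDC* is highest in *ddc/med13* (245 to 299 CPM) and *ddc* (329 to 394 CPM), AT3G29639 in *morc1* (47.8 to 61.0 CPM over both sets), and AT1G36680 in *morc1* (7.44 to 9.67 CPM).

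Across the 14 groups the order of levels differed between the loci. For *SDC* it ran *ddc*, *ddc/med13*, *morc1* set 1, *morc1* set 2 and *morc1/med12*, with no overlap between neighbours, followed by *morc1/med13*, whose libraries overlapped those of *morc1/med12*, and *SDC:GFP* wild type, which overlapped *morc1/med13*. For AT3G29639 the order ran *morc1* set 1 and *morc1* set 2, which overlapped, then *ddc*, then *morc1/med12*, then *morc1/med13* and *ddc/med13*, which overlapped each other. For AT1G36680 the 2 *morc1* sets led, with *morc1/med12* below them and then *morc1/med13* and *ddc*, which overlapped. Between genes, levels were compared per kilobase of exon: in *ddc*, *SDC* averaged 222 CPM per kb and AT3G29639 43.1 CPM per kb, whereas in *morc1* set 2 *SDC* averaged 16.6 and AT3G29639 53.2 CPM per kb. Group means of AT3G29639 and AT1G36680 followed each other more closely (Pearson r = 0.88, Spearman rho = 0.94 over the 14 groups of log2(CPM + 0.5) means) than those of *SDC* and AT1G36680 (r = 0.52, rho = 0.72), as a description over groups that share genotypes and library sets.

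In *ddc*, *SDC* and AT3G29639 were well above the wild type and AT1G36680 was near the floor. *SDC* had 1007, 1058, 1070 and 1039 counts in *ddc*, AT3G29639 had 95, 131, 107 and 142, and AT1G36680 had 4, 0, 8 and 1. Against the *SDC:GFP* wild type, described only since those libraries chose the loci, *SDC* was 84.9-fold higher (counting interval 65.1 to 113) and AT3G29639 88.6-fold (40.4 to 243), and 12.4% of all features were called higher. Against Col-0, where 7.34% of features were called higher, the log2 fold changes were 9.71 for *SDC* (SE 0.19), 6.01 for AT3G29639 (SE 0.31) and 2.34 for AT1G36680 (SE 0.81). The loci passed the filter on low counts in that fit only through groups where they are high, so these values are a description with no test. The ratio of summed counts of AT1G36680 was 5.52 (counting interval 1.85 to 19.8). Without *ddc* replicate 3, the library with 8 counts, its log2 change was 1.40.

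Set against *morc1* set 2 directly, *ddc* had more *SDC*, less AT1G36680 and a level of AT3G29639 that was not distinguished. *SDC* was higher by 3.74 on the log2 scale (SE 0.12, adjusted p = 3.95e-27), 13.4-fold. AT1G36680 was at 1.17 ± 1.27 CPM in *ddc* (SD, n = 4), against 9.04 ± 0.55 CPM in *morc1* set 2 (SD, n = 3), a log2 change of -2.98 (SE 0.48). It passed the filter on low counts in that fit only through groups where it is high, so this is a description with no test. The log2 change was -3.93 without *ddc* replicate 3, the library with 8 counts, and -2.54 without *ddc* replicate 2, the library with 0. AT3G29639 was at 40.7 ± 4.94 CPM in *ddc* (SD, n = 4), against 50.3 ± 2.30 CPM in *morc1* set 2 (SD, n = 3), a log2 change of -0.30 (interval -0.68 to 0.07, adjusted p = 0.177). In this contrast 25.8% of features were called in either direction, and the groups come from different library sets. Green-tissue markers were at 499 to 587 CPM in *ddc*, against 347 to 367 CPM in *morc1* set 2. Library totals were 2767761 to 3340821 counts in *ddc* and 4479713 to 4743689 in *morc1* set 2. Whether duplicate removal caps these markers was not tested.

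The *SDC* level in *ddc* is bounded by the processing. Since reads with the same start and strand were reduced to 1, no gene can exceed about 1 count per exonic base. *SDC* reached 0.538 counts per exonic base on average in *ddc/med13* and 0.642 in *ddc*, against 0.0794 in *morc1* set 2, and the highest value of any gene in any library was 0.909. Undoing the ceiling under the assumption of random start positions raised the mean level of *SDC* to 525 ± 37.6 CPM in *ddc* (SD, n = 4), against 361 ± 28.2 CPM as deposited. The log2 fold change of *ddc* over *morc1* set 2 became 4.38, against 3.74 as deposited. AT3G29639 and AT1G36680 were at or below 0.255 counts per exonic base in every group mean, where the ceiling has little effect.

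**Figure D3:**
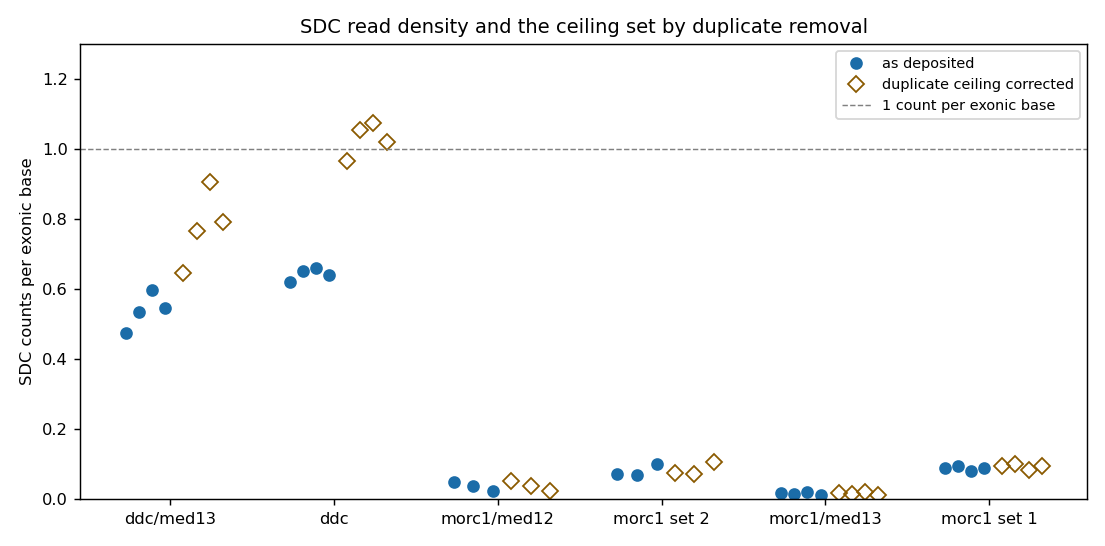
*SDC* counts divided by its exonic length in each library, as deposited (filled circles) and after correction for the ceiling that duplicate removal sets (open diamonds), with the dashed line at 1 count per exonic base. In *ddc* and *ddc/med13* the deposited values stand at 0.538 to 0.642 on average, and in the *morc1* groups below 0.1.

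Disrupting MED12 in *morc1* lowered all 3 loci. *SDC* had 79, 58 and 39 counts in *morc1/med12*, against 114, 111 and 162 in *morc1* set 2. It fell by 1.22 on the log2 scale (SE 0.25, adjusted p = 0.016), 2.33-fold. AT3G29639 had 129, 124 and 133 counts in *morc1/med12*, against 255, 221 and 247 in *morc1* set 2. It fell 2.00-fold (SE 0.07 on the log2 scale, adjusted p = 0.000248). AT1G36680 had 24, 24 and 34 counts in *morc1/med12*, against 43, 40 and 47 in *morc1* set 2. It fell 1.70-fold (log2 -0.76, SE 0.19, adjusted p = 0.0354). In no case did the groups overlap, and 3.75% of the features tested were called lower in this contrast.

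The call for AT3G29639 held when any one library was left out. That of *SDC* was lost without *morc1/med12* replicate 2 (log2 -1.21, adjusted p = 0.0686). That of AT1G36680 was lost without any of 5 of the 6 libraries, namely all except *morc1/med12* replicate 3 (log2 -0.79 to -0.67, adjusted p up to 0.106), with DESeq2 (adjusted p = 0.149) and with all 50 libraries in one fit (adjusted p = 0.186). Within *morc1/med12* the spread of *SDC* was wide, at 16.5, 11.3 and 7.26 CPM in replicates 1, 2 and 3, while AT3G29639 stayed between 24.2 and 26.9 CPM. The summed level of 4 seed and embryo markers in the same replicates was 36.3, 85.4 and 307 CPM, against 5.97 to 45.2 CPM in *morc1* set 2. *OLEO1*, an oil body protein gene of seeds, was called higher (log2 3.35, adjusted p = 0.00506), where 1.74% of features were. Root markers summed to 48.1 to 53.0 CPM in *morc1/med12*, against 59.1 to 92.5 CPM in *morc1* set 2, with no overlap. Of these *TIP2;3*, an aquaporin gene, was called lower (log2 -2.38, adjusted p = 0.00227), while *EXPA7* (log2 0.30) and *COBL9* (log2 -0.36) were not called. The part of these markers in the values of the 3 loci was not tested.

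The expression that remained depended, for *SDC*, on which wild type it was set against. Beside the *SDC:GFP* wild type, described only, *SDC* was at 16.5, 11.3 and 7.26 CPM in *morc1/med12* and at 8.23, 7.81, 9.44 and 5.63 CPM in *morc1/med13*, against 1.31, 4.55, 7.79 and 3.01 CPM in *SDC:GFP* wild type. Both double mutants overlapped the wild type, with ratios of summed counts of 2.72 for *morc1/med12* (counting interval 2.00 to 3.76) and 1.85 for *morc1/med13* (1.31 to 2.62). AT3G29639 and AT1G36680 did not overlap it in either double mutant, with ratios of 54.7 (24.9 to 150) and 69.8 (12.2 to 2788) in *morc1/med12* and of 23.8 (10.7 to 66.1) and 17.6 (2.76 to 736) in *morc1/med13*.

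Col-0, which lacks the transgene and has less *SDC* than the *SDC:GFP* wild type, did not choose the loci. In *morc1/med12* the log2 fold changes over Col-0 were 4.75 for *SDC* (SE 0.39), 5.32 for AT3G29639 (SE 0.33) and 4.56 for AT1G36680 (SE 0.57), with 7.12% of all features called higher. In *morc1/med13* they were 4.19 for *SDC* (SE 0.45), 4.12 for AT3G29639 (SE 0.38) and 2.60 for AT1G36680 (SE 0.76), with 10.7% called higher. The loci passed the filter on low counts in that fit only through groups where they are high, so these values are a description with no test. Both contrasts span library sets and the transgene.

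Disrupting MED13 in *morc1* was read first against its own controls, which chose the loci, and is described with no test. *SDC* had 26, 24, 31 and 17 counts in *morc1/med13*, against 145, 154, 130 and 145 in *morc1* set 1. AT3G29639 had 44, 30, 40 and 24 counts in *morc1/med13*, against 168, 208, 167 and 175 in *morc1* set 1. AT1G36680 had 8, 2, 5 and 2 counts in *morc1/med13*, against 30, 29, 24 and 28 in *morc1* set 1. The groups stood apart for each locus. The log2 fold changes were -2.46 for *SDC* (SE 0.13), -2.29 for AT3G29639 (SE 0.14) and -2.59 for AT1G36680 (SE 0.32), that is 5.50-, 4.89- and 6.02-fold lower, and 11.3% of all features were called lower.

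The same double mutant can be tested against the *morc1* libraries that did not choose the loci. Over *morc1* set 2, *morc1/med13* was lower for *SDC* (log2 -1.78, SE 0.21, adjusted p = 1.38e-09) and for AT3G29639 (log2 -2.19, SE 0.22, adjusted p = 3.10e-11). AT1G36680 was also lower (log2 -2.72, SE 0.45). It passed the filter on low counts only through groups where it is high, so its value is a description with no test. In this contrast 15.4% of features were called lower, and the 2 groups are of different library sets. Seed and embryo markers summed to 98.0 to 868 CPM in *morc1/med13*, against 14.3 to 110 CPM in *morc1* set 1, and root markers to 43.4 to 58.5 CPM, against 87.4 to 108 CPM. Of the root markers *COBL9* (log2 -1.25) and *TIP2;3* (log2 -1.68) were called lower over *morc1* set 1, while *EXPA7* (log2 -0.11) was not called. Whether these marker differences bear on the 3 loci was not tested, and in whole seedlings fewer expressing cells and less RNA per cell cannot be told apart.

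Disrupting MED13 in *ddc* lowered AT3G29639, while the difference at *SDC* did not reach the fold for a call and AT1G36680 was too low to fit. *SDC* had 772, 869, 968 and 888 counts in *ddc/med13*, against 1007, 1058, 1070 and 1039 in *ddc*. Its difference was below the fold for a call (log2 -0.43, SE 0.07, adjusted p = 0.00108), although no library overlapped. AT3G29639 had 15, 54, 10 and 15 counts in *ddc/med13*, against 95, 131, 107 and 142 in *ddc*. It fell 5.65-fold (log2 -2.50, SE 0.35, adjusted p = 0.000347). AT1G36680, which the filter on low counts removed, had 0, 2, 1 and 0 counts in *ddc/med13*, against 4, 0, 8 and 1 in *ddc*. Its ratio of summed counts was 0.203 (counting interval 0.0371 to 0.739), but its libraries overlapped and an exact two-sided permutation test gave p = 0.257 (0.386 adjusted over the 9 such tests made). Of 18889 features tested, 7.10% were called lower.

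2 limits apply. The *SDC* difference lies in the range that duplicate removal compresses: with the ceiling corrected it was -0.58 on the log2 scale, next to the 1.5-fold line and still not called. The AT3G29639 difference was larger without *ddc/med13* replicate 2, the library with 54 counts (log2 -3.28). Root markers summed to 24.1 to 74.1 CPM in *ddc/med13*, against 87.5 to 137 CPM in *ddc*, and seed and embryo markers to 4.63 to 248 CPM, against 1.01 to 8.71 CPM. Of the root markers *TIP2;3* was called lower (log2 -3.71), while *EXPA7* (log2 -0.02) and *COBL9* (log2 -0.10) were not called. The part of these markers in the *SDC* and AT3G29639 differences was not tested.

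**Figure D4:**
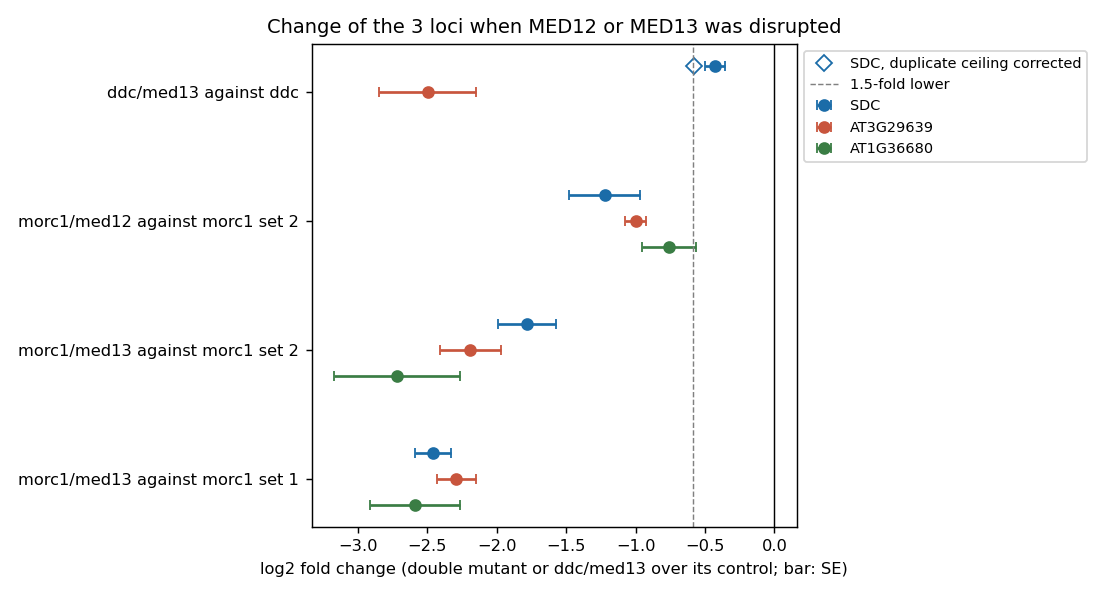
Log2 fold change of each locus when *MED12* or *MED13* was disrupted, for *ddc/med13* over *ddc*, *morc1/med12* over *morc1* set 2, and *morc1/med13* over either *morc1* set, with bars for SE and a dashed line at 1.5-fold lower. *SDC* moved by -0.43 in *ddc* (open diamond, -0.58 with the ceiling corrected) and by -1.22 to -2.46 in *morc1*, whereas AT3G29639 moved by -2.50 in *ddc*. AT1G36680 was too low in *ddc* to be fitted.

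Whether the Mediator lesion acted differently in the 2 backgrounds was tested as a difference of log2 changes. The *med13* change in *ddc* minus the *med12* change in *morc1* was 0.80 for *SDC* (SE 0.24, adjusted p = 0.0362), the smaller drop being in *ddc*. For AT3G29639 it was -1.50 (SE 0.38, adjusted p = 0.018), the larger drop being in *ddc*. It was -2.29 without *ddc/med13* replicate 2, and it was called without any one library (-2.29 to -1.27). For AT1G36680 it was -1.38 (interval -3.39 to 0.63), from -2.33 without *ddc/med13* replicate 2 to -0.46 without *ddc* replicate 3. That locus passed the filter here only through the *morc1* groups, so its values are a description with no test. Of all features, 8.34% were called in either direction. This compares different genes, *MED13* and *MED12*, as well as backgrounds. The *SDC* difference was not called with the duplicate ceiling corrected (0.69, adjusted p = 0.091), nor without any one of *ddc/med13* replicates 1 and 3, *morc1* set 2 replicates 6 and 7 and *morc1/med12* replicates 2 and 3 (0.56 to 0.88, adjusted p up to 0.127).

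With the same gene in both backgrounds, though as a CRISPR-CAS9 lesion in *ddc* and as *gct-2* in *morc1*, the *med13* change in *ddc* minus that in *morc1* was 1.34 for *SDC* (SE 0.23, adjusted p = 5.65e-06), using *morc1* set 2 as the control. It was -0.32 for AT3G29639 (interval -0.98 to 0.33, adjusted p = 0.454). For AT1G36680 it was 0.53 (interval -2.42 to 3.48), a description with no test, as the locus passed the filter only through groups where it is high. Of all features, 23.8% were called in this test, which sets double mutant and control from different library sets against each other. For *SDC* it held without any one library and with the ceiling corrected (adjusted p up to 0.000141 over the alternatives tried). For AT3G29639 the difference was called once *ddc/med13* replicate 2 was left out (-1.09, adjusted p = 0.00143), with the larger drop in *ddc*. With *morc1* set 1 as the control, described only, the differences were 2.03 for *SDC*, -0.21 for AT3G29639 and 0.47 for AT1G36680.

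In seedlings with intact MORC1 and DNA methylation the loci were near the floor. AT3G29639 had fewer counts in the Mediator mutants. In long days the exact test used could not pass the threshold after adjustment, and in the dark and light libraries the difference is described with no test. It had 0, 1, 0 and 0 counts in *med12* and 0, 1, 0 and 1 in *med13*, against 6, 5, 3 and 1 in Col-0. The ratio of summed counts was 0.0649 in *med12* (counting interval 0.00154 to 0.422) and 0.123 in *med13* (0.0137 to 0.531). The filter on low counts removed the locus here, and exact two-sided permutation tests gave p = 0.0286 for each, the smallest that 4 against 4 libraries allow, or 0.129 adjusted over the 9 tests. As some of the 9 are of 3 against 3 libraries, no outcome could bring an adjusted value under 0.05, so the adjusted value decides nothing. Without the filter the edgeR test called it lower in *med12* (log2 -3.40, adjusted p = 0.0115) and in *med13* (log2 -2.72, adjusted p = 0.022). Seed and embryo markers summed to 34.0 to 334 CPM in *med12* and 31.3 to 558 CPM in *med13*, against 1.45 to 8.21 CPM in Col-0, and root markers to 46.9 to 75.9 and 34.6 to 63.1 CPM, against 90.6 to 105 CPM. Of the 3 root markers 1 was called lower in each mutant. The part of these markers in the AT3G29639 difference in long days was not tested.

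The dark and light libraries of Col-0 gave the same locus more counts, and the spread between replicates there was near counting noise. AT3G29639 had 1, 2 and 0 counts in *med12* in the dark, against 14, 8 and 14 in Col-0 in the dark. After 15 minutes of light it had 1, 1 and 0 counts in *med12*, against 10, 9 and 10 in Col-0. The groups did not overlap in either condition. It was lower in *med12* by a log2 change of -3.52 in the dark (SE 0.58), where 7.69% of features were called lower, and of -3.58 in the light (SE 0.67), where 9.10% were called lower. The locus passed the filter on low counts there only through Col-0, where it is higher, so these values are a description with no test. The ratios of summed counts were 0.0781 in the dark (counting interval 0.0154 to 0.247) and 0.0715 in the light (0.00826 to 0.283). The log2 change in the dark was -4.38 without *med12* dark replicate 2, the library with 2 counts, and -2.97 without *med12* dark replicate 3, the library with 0. Seed and embryo markers summed to 151 to 285 CPM in *med12* in the dark, against 0.456 to 2.05 CPM in Col-0 in the dark, and to 67.3 to 90.5 CPM in *med12* in the light, against 2.36 to 4.18 CPM in Col-0 in the light. Root markers summed to 58.0 to 65.1 CPM in *med12* in the dark, against 106 to 108 CPM in Col-0 in the dark, and to 52.8 to 57.9 CPM in *med12* in the light, against 101 to 109 CPM in Col-0 in the light. Of the root markers *TIP2;3* was called lower (log2 -1.58 in the dark and -1.43 in the light) and *EXPA7*, a root hair expansin gene, higher (log2 0.94 and 0.87). The part of these markers in the AT3G29639 difference was not tested.

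*SDC* did not show this pattern in long days. It had 6, 2, 5 and 3 counts in *med12* and 3, 2, 4 and 1 in *med13*, against 1, 2, 5 and 2 in Col-0, with ratios of 1.56 (counting interval 0.665 to 3.84) and 0.926 (0.346 to 2.48) and exact permutation p = 0.314 and 0.8286. In the dark it had 3, 1 and 5 counts in *med12*, against 9, 9 and 7 in Col-0, a ratio of 0.338 (0.139 to 0.748) with no overlap. In the light it had 2, 2 and 1 counts in *med12*, against 3, 5 and 4 in Col-0, a ratio of 0.432 (0.119 to 1.32). The exact permutation test gave p = 0.1 for both, the smallest that 3 against 3 libraries allow. Without the filter on low counts the edgeR test called *SDC* lower in *med12* in the dark (log2 -1.53, adjusted p = 0.0307).

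AT1G36680 was at or under 3 counts in every library of these groups. It had 0 counts in all 4 *med12*, all 4 *med13*, all 3 *med12* dark and all 3 *med12* light libraries, which allows up to 0.118, 0.113, 0.143 and 0.153 CPM for 3 counts over each group. Col-0 had 5 counts in 4 long-day libraries, 2 in 3 dark and 4 in 3 light libraries, too few in any one of these contrasts for a test. With the 3 conditions pooled, the 14 Mediator mutant libraries had 0 counts, against 11 in the 10 Col-0 libraries, 6 of which had any. The pooled Col-0 level, 0.170 CPM, was 5.25-fold that of 3 counts over the 14 mutant libraries, 0.0324 CPM. This takes the 11 Col-0 counts as exact, so it is not a lower bound. It was worked out because all these *med12* and *med13* libraries were at 0, and is a description only.

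A pulse of light after darkness gave no call. AT3G29639 had 10, 9 and 10 counts in Col-0 in the light, against 14, 8 and 14 in the dark (log2 -0.36, interval -1.04 to 0.32, adjusted p = 0.612), and in *med12* it was at 2 counts or fewer in every library of both conditions. *SDC* had 3, 5 and 4 counts in Col-0 in the light, against 9, 9 and 7 in the dark, with no overlap (ratio 0.464, counting interval 0.213 to 0.959). The exact permutation test gave p = 0.1, the smallest that 3 against 3 libraries allow, so it cannot settle this difference, and *SDC* was lower in the light in every library.

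The neighbourhood of each locus was read with the 3 nearest annotated genes on either side. Near AT1G36680, 2 of its neighbours were high in *morc1* as well, in the contrast where 1.19% of all features were called higher. AT1G36675, a protein-coding gene 1589 bases away, had 50 to 71 counts in *morc1* set 1, against 0 to 2 in *SDC:GFP* wild type. AT1G06993, a long noncoding RNA gene 11 bases behind AT1G36680 on the same strand, had 30 to 44 counts in *morc1* set 1, against 0 or 1 in *SDC:GFP* wild type. The log2 changes were 6.09 (SE 0.37) and 5.89 (SE 0.42). Whether AT1G06993 and AT1G36680 are separate transcripts cannot be told from these counts.

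Both were called lower with MED12 disrupted, where 3.75% of all features were. In *morc1/med12*, AT1G36675 was at 5.90 ± 0.595 CPM, against 11.6 ± 0.756 CPM in *morc1* set 2 (SD, n = 3 each, log2 -0.98, adjusted p = 0.00653), and AT1G06993 was at 5.88 ± 0.524 CPM, against 10.4 ± 1.55 CPM (log2 -0.83, adjusted p = 0.0223). In *morc1/med13* the log2 changes over *morc1* set 1 were -3.07 for AT1G36675 (SE 0.26) and -3.03 for AT1G06993 (SE 0.44). AT1G36675 had 0 to 2 counts in *ddc/med13*, against 6 to 13 in *ddc*, and AT1G06993 had 0 or 1, against 2 to 5. Like AT1G36680 itself, they were lower in *ddc* than in *morc1* set 2 (log2 -1.82, adjusted p = 1.80e-06 for AT1G36675 and log2 -3.08 for AT1G06993), in the contrast where 25.8% of features were called in either direction. AT1G06993 passed the filter on low counts there only through groups where it is high, so its value is a description with no test. Both genes were at 0 counts in every library of *med12* in long days, dark and light and of *med13*.

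Of the genes around *SDC*, AT2G17695, which overlaps *SDC* on the opposite strand and was counted separately because the libraries keep strand, had a log2 change of 0.14 (SE 0.06) in *morc1* set 1 over *SDC:GFP* wild type. In *ddc* it was at 26.2 ± 3.11 CPM, against 52.5 ± 2.92 CPM in *SDC:GFP* wild type (SD, n = 4 each) (log2 -0.99, SE 0.09). In *ddc/med13* it was at 37.5 ± 5.53 CPM, against 26.2 ± 3.11 CPM in *ddc* (SD, n = 4 each), higher by 1.44-fold and so not called (log2 0.53, adjusted p = 0.00799). Its level was thus lowest in the group in which *SDC* was highest among those that carry the transgene. In *morc1/med13* it was at 41.1 ± 6.97 CPM, against 58.1 ± 2.49 CPM in *morc1* set 1 (SD, n = 4 each, log2 -0.50). AT2G17705 was at 25.4 ± 2.79 CPM in *ddc*, against 9.40 ± 2.20 CPM in *SDC:GFP* wild type, and at 22.9 ± 3.87 CPM in *morc1/med13*, against 11.4 ± 1.17 CPM in *morc1* set 1 (SD, n = 4 each). *STY8*, a protein kinase gene, was called neither in *morc1/med12* nor in *ddc/med13*. AT2G17660, 8449 bases from *SDC*, did not pass the filter and stood the other way from *SDC* where MED13 was disrupted. It had 6 to 45 counts in *morc1/med13*, against 0 to 3 in *morc1* set 1, and 3 to 19 in *ddc/med13*, against 0 to 2 in *ddc*. In *morc1/med12* it had 2 to 6 counts, against 2 to 4 in *morc1* set 2.

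The 6 nearest neighbours of AT3G29639 were at or under 11 counts in every library of these contrasts and none passed the filter. AT3G29637, 6502 bases away, had 0 to 2 counts in *ddc/med13*, against 5 to 11 in *ddc*, and 0 to 2 in *morc1/med12*, against 3 to 5 in *morc1* set 2. In *SDC:GFP* wild type it had 0 or 1.

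The features whose group means were most like each locus over the 14 groups are given as a description, out of 19962 features with at least 5 CPM in some group. For AT3G29639 they were AT3G29631 (r = 0.98), AT2G10975 (r = 0.93) and AT1G36675 (r = 0.92), and for AT1G36680 they were AT1G06993 (r = 0.99), AT1G36675 (r = 0.97) and AT2G10975 (r = 0.94). For *SDC* they were AT4G07995 (r = 0.94), *ADF2* (r = 0.93), an actin depolymerizing factor gene, and *WLIM1* (r = 0.92), an actin-binding LIM protein gene. *ADF2* was at 103 CPM in *ddc* against 64.9 CPM in Col-0, a far smaller range than that of *SDC*. These features were chosen for their group means, so their values carry no test unless they are also neighbours. Ranked by Spearman's rho instead, AT3G29631 and AT1G36675 led for AT3G29639 and AT1G36680, and the 3 features named for *SDC* were replaced by others.

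AT3G29631, a protein-coding gene 7811 bases from AT3G29639, was at 24.5 ± 1.505 CPM in *morc1* set 1 and 22.8 ± 2.66 CPM in *ddc*, against 0.307 ± 0.245 CPM in *SDC:GFP* wild type (SD, n = 4 each). In *ddc/med13* it had 29, 58, 10 and 10 counts, against 57 to 79 in *ddc* (log2 -1.46, SE 0.42). Replicate 2 was the highest *ddc/med13* library for this gene as for AT3G29639. The seed and embryo markers were also highest in that library, at 248 CPM, against 4.63 to 158 CPM in the other 3, and their part was not tested. In *morc1/med12* it was at 18.2 ± 0.34 CPM, against 26.7 ± 0.128 CPM in *morc1* set 2 (SD, n = 3 each, log2 -0.56). The 2 genes share 20 words of 50 bases, and the part of shared reads in their likeness was not tested.

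**Figure D5:**
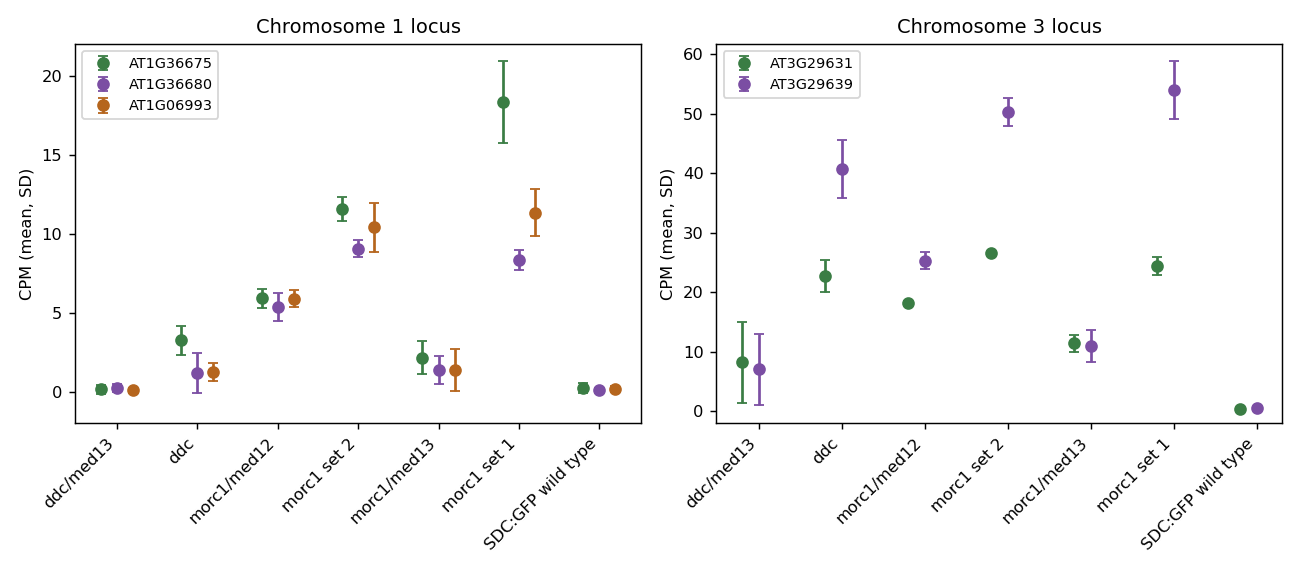
Mean level with SD in CPM of AT1G36680 and the 2 genes beside it (left) and of AT3G29639 and AT3G29631 (right), in the 7 groups that carry, or are taken to carry, *SDC:GFP*. The genes of the chromosome 1 locus are at 8.34 to 18.3 CPM in *morc1* set 1 and at 0.0749 to 0.225 CPM in *SDC:GFP* wild type, and below 4 CPM in *ddc*. The genes of the chromosome 3 locus are high in both *morc1* and *ddc*, and at 7.06 and 8.19 CPM in *ddc/med13*.

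AT4G07995, the gene most like *SDC*, shared its order of backgrounds at a lower amplitude. It was at 33.2 ± 3.22 CPM in *ddc* and 18.4 ± 4.32 CPM in *morc1* set 1, against 4.38 ± 1.56 CPM in *SDC:GFP* wild type (SD, n = 4 each). In *ddc/med13* it was at 30.7 ± 7.55 CPM, against 33.2 ± 3.22 CPM in *ddc* (SD, n = 4 each) (log2 -0.10, SE 0.16). In *morc1/med13* it was at 6.72 ± 3.07 CPM, against 18.4 ± 4.32 CPM in *morc1* set 1 (SD, n = 4 each) (log2 -1.45, SE 0.29). In the dark it had 0 to 3 counts in *med12*, against 7 to 12 in Col-0, and in the light 1 to 6 counts in *med12*, against 15 to 22 in Col-0.

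A list of 10 genes held *ROS1* and other loci, the others known to be silenced by methylation or imprinted. Most of the 10 were too low to test. *ROS1* is not silenced by methylation, and its changes are not read as those of a silenced locus. In *morc1* set 1 over *SDC:GFP* wild type 2 of the 10 passed the filter and neither was called. In *ddc* over *SDC:GFP* wild type 2 passed, of which *ROS1*, a DNA demethylase gene whose own expression depends on methylation of its promoter, was at 0.253 ± 0.307 CPM, against 90.2 ± 10.1 CPM (SD, n = 4 each, adjusted p = 1.25e-10). In *morc1/med12* none of 2 tested was called, in *ddc/med13* the 1 tested was not, and in *morc1/med13* *ROS1* was called higher (log2 0.62, adjusted p = 0.000236), where 7.60% of features were. In *med12* over Col-0, 4 of the 10 were tested in the dark and in the light. *PHE1*, an imprinted MADS-box gene, was called lower in the dark (log2 -1.90, adjusted p = 8.25e-10), where 7.69% of features were, and in the light (log2 -2.37, adjusted p = 3.67e-10), where 9.10% were. *MEA*, an imprinted Polycomb gene, was called lower too (log2 -0.88, adjusted p = 0.0046 in the dark and log2 -1.20, adjusted p = 0.00012 in the light). *ROS1* was called higher in the dark (log2 0.61, adjusted p = 5.85e-21), where 5.71% of features were. In long days 3 of the 10 were tested. *PHE1* had the opposite sign there and was not called, at 1.78 ± 1.38 CPM in *med12* and 1.81 ± 0.728 CPM in *med13*, against 0.698 ± 0.342 CPM in Col-0 (SD, n = 4 each, edgeR adjusted p = 0.0896 and 0.0798). *ROS1* was called higher in *med13* over Col-0 (log2 0.64, adjusted p = 0.000108), where 7.16% of features were, and in *med12* it was below the fold for a call (log2 0.51, adjusted p = 0.000703).

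Of the silencing machinery, 15 of a list of 16 genes were tested, and none was called in *morc1/med12* or *morc1/med13* over its controls, with median log2 changes of 0.13 and 0.08, against 0.00 over all features. In *ddc/med13* over *ddc* 3 of the 15 were called higher, where 7.90% of all features were, and none lower: *DDM1*, a chromatin remodeler gene (log2 0.93, adjusted p = 0.000472), *MET1*, the CG methyltransferase gene (log2 0.65, adjusted p = 0.00176), and *NRPE1*, which encodes the largest subunit of RNA polymerase V (log2 0.63, adjusted p = 0.00104). In *ddc* over *SDC:GFP* wild type 5 of 15 were called lower, where 14.8% of all features were: the mutated *DRM2* and *CMT3*, *DDM1*, *MET1* and *AGO4*, an Argonaute gene of RNA-directed DNA methylation. In *med12* or *med13* over Col-0 in long days none of the 15 was called. In *med12* over Col-0, *NRPD1*, which encodes the largest subunit of RNA polymerase IV, was called higher in the dark (log2 0.79, adjusted p = 3.16e-12), where 5.71% of features were, and in the light (log2 0.83, adjusted p = 2.37e-12), and *NRPE1* in the light (log2 0.66, adjusted p = 3.21e-13), where 5.06% of features were.

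Of the MORC family, *MORC2* was called lower in *morc1* set 1 over *SDC:GFP* wild type, at 4.35 ± 1.84 CPM, against 13.7 ± 2.83 CPM (SD, n = 4 each, log2 -1.64, adjusted p = 6.01e-05), where 1.37% of features were called lower, and no member was called in any double mutant over its controls. *MORC2* was also called lower over Col-0 in *med12* (log2 -0.67, adjusted p = 0.032), where 5.12% of features were, and in *med13* (log2 -0.60, adjusted p = 0.0488), where 6.27% were.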

How the data were processed

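RNA-seq was analysed from the counts that the authors deposited, 1 table per library of whole-number counts, not normalized. The authors trimmed 50-base single-end reads with Trim Galore, aligned them to TAIR10 with STAR, removed duplicates with Picard and counted Araport11 genes and transposable elements, 68527 features, by strand with HTSeq 0.6.1. Rows that name no feature were left out: in the 44 libraries that have them, reads in no feature made up 2.2 to 5.03% and ambiguous reads 0.618 to 0.919% of the counts. The members and lists were chosen with earlier results of these data known.

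Features passing filterByExpr were scaled by TMM and tested with edgeR 4.0.16 (glmQLFit and glmQLFTest, R 4.3.3), adjusted over all features tested and called at more than 1.5-fold and adjusted p under 0.05. Own-control contrasts were fitted on those groups alone, Col-0, *med12* and *med13* together, the dark and light groups together, and contrasts across sets with all 50 libraries. Each SE is the log2 change divided by the square root of its F statistic, and intervals of log2 changes are 95% normal intervals. Members that the filter removed were tested by an exact permutation test on log2(CPM + 0.5), with Benjamini-Hochberg adjustment over 9 tests. Ratios of summed counts have exact 95% intervals (Clopper-Pearson, counting error only). Groups and replicates came from the labels of the libraries. Alternatives were DESeq2 1.42.0, RLE size factors, no filter, a correction of the duplicate ceiling (-L ln(1 - count/L), L the exonic length), another set of libraries in the fit, a replicate block and leaving out each library. The tests were run on simulated data first. Sequences, gene positions and lengths are from RefSeq's TAIR10.1, which has the TAIR10 chromosomes. Single genes named are the members, the mutated genes, the 3 nearest genes on each side, the 3 features most like each member by Pearson r, and list members past the thresholds. *MORC4*, *MORC5* and *MORC7* had no matching symbol in the annotation and were dropped. Libraries with the same replicate number did not deviate together in every pair, so the numbers were not taken as pairs.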

Additional observations from a re-analysis of the deposited data

Results flagged for a closer look

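In *ddc/med13* the highest library for AT3G29639, replicate 2, was at 15.9 CPM and stood far from the other 3, with a gap to the next library of 0.844 of the group's range. Chance alone gives such a gap in about 1 in 20 groups, and 16 were looked at. The log2 change of AT3G29639 in *ddc/med13* over *ddc* was -2.50 with this library and -3.28 without it.

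3 differences between backgrounds passed the test of the difference itself. The *med13* change in *ddc* minus the *med12* change in *morc1* was 0.80 for *SDC* and -1.50 for AT3G29639 on the log2 scale (edgeR adjusted p = 0.0362 and 0.018), and without *ddc/med13* replicate 2 that of AT3G29639 was -2.29. The *med13* change in *ddc* minus that in *morc1*, with *morc1* set 2 as the control, was 1.34 for *SDC* (edgeR adjusted p = 5.65e-06). In both tests the groups come from different library sets, and the first also compares different Mediator genes.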

How the results depend on the processing

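Depth limits the loci where they are silent: 3 counts equal 0.42 to 1.17 CPM, so differences between groups near the floor are not resolved, and *SDC* in *ddc* is limited by the duplicate ceiling instead. The call of AT1G36680 in *morc1/med12* was lost with DESeq2 (log2 -0.76) and with all 50 libraries in one fit (log2 -0.75). The *SDC* difference between the *med13* change in *ddc* and the *med12* change in *morc1* was not called with the duplicate ceiling corrected (0.69). AT3G29639, which the exact test with its adjustment could not call in *med12* or *med13* against Col-0, was called by other fits. In *med12* these were DESeq2 (log2 -3.66), no filter (-3.40) and all libraries (-3.30), and in *med13* no filter (-2.72) and all libraries (-2.66). With all libraries the locus passed the filter only through groups where it is high, so that call is no test. *SDC* in *med12* in the dark was called without the filter only (-1.53). These fits use counts where the main value uses log2(CPM + 0.5), and beyond that the cause was not tested. Leaving out 1 library gave log2 changes of -1.54 to -0.97 for *SDC* and -0.91 to -0.67 for AT1G36680 in *morc1/med12*, 1.40 to 2.79 for AT1G36680 in *ddc* over Col-0 and 5.88 to 7.78 for AT1G36680 in *morc1* set 1 over *SDC:GFP* wild type. The *SDC* difference between the *med13* change in *ddc* and the *med12* change in *morc1* ranged over 0.56 to 1.11, and the AT3G29639 difference between the *med13* changes in *ddc* and *morc1* (set 2) over -1.09 to -0.053. Features called in *morc1/med12* numbered 1106, and 723 without *morc1* set 2 replicate 6. With all libraries in one fit, features called between light and dark numbered 338 in Col-0, against 610, and 116 in *med12*, against 375.

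With a replicate block, *SDC* in *ddc/med13* over *ddc* was at -0.43 and AT3G29639 at -2.58, and the block changed no call of a member. No paired analysis was possible because of unshared replicate numbers for *morc1/med12* and *morc1* set 2.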
